A study of Mus musculus with 6 samples.

Results

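The genes described here are 8 receptor tyrosine kinases, the 4 ERBB receptors (Egfr, Erbb2, Erbb3 and Erbb4), 3 FGF receptors (Fgfr1, Fgfr2 and Fgfr3) and the HGF receptor Met, together with Errfi1, an intracellular inhibitor of the ERBB receptors. They were taken by gene symbol from a table of 45038 rows, and all 9 were found. Transcripts were measured by RNA sequencing in 6 mouse cells from the mice named 1157, 1168 and PDGF1. From every mouse came 1 CTC, short for circulating tumor cell, found in the blood, and 1 tumor cell, whose sample title ends in GBM, the usual short form of glioblastoma. The labels name no genotype, strain, driver gene, treatment, time or age for any group. The design text counts all 6 as single cells, but in the source labels "single" appears for CTCs and not for tumor cells. Cells are named below by kind and mouse, as in CTC 1157. If a tumor sample held more than 1 cell, fewer expressing cells and less RNA per cell cannot be told apart. Nothing in the labels says how a cell was recognised as a tumor cell.

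Receptor tyrosine kinases sit in the cell membrane, pair up when a ligand binds outside, and phosphorylate each other inside, which recruits adaptors that switch on the RAS-ERK and PI3K-AKT pathways. ERBB receptors bind ligands of the EGF and neuregulin families, FGF receptors bind fibroblast growth factors together with heparan sulfate, and Met binds hepatocyte growth factor. Erbb2 has no known ligand of its own and Erbb3 has a kinase of little activity, so both work mainly in pairs with other ERBB receptors. Errfi1, also called Mig6, is induced by receptor signalling, binds the active kinase of ERBB receptors and promotes their breakdown, a negative feedback. In human glioblastoma EGFR is the receptor most often amplified, and in the normal brain Egfr, Fgfr1, Fgfr2 and Fgfr3 are expressed in glia and their progenitors.

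Values are FPKM, fragment numbers scaled to transcript length and to all mapped fragments of the library, so that levels can be compared between genes. Low values showed how many fragments stand behind them. In genes with 1 annotated transcript, 90.7% to 93.6% of low values in each cell fell within 0.1 of a whole number of fragments. The value of 1 fragment, the step, was chosen to make this share highest. With a larger step, a fixed multiple of the chosen one, the share was 4.1% to 10.9%, which is no independent control. The step implied 27.1 M, 31.5 M and 42.2 M mapped fragments (M, mega) in CTCs 1157, 1168 and PDGF1 and 11.7 M, 55.2 M and 41.1 M in their tumor cells. Depth was thus high, but named protein-coding genes took from 11.8% of the FPKM in CTC PDGF1 to 84.4% in CTC 1168. The summed FPKM also differed, from 46973 in CTC PDGF1 to 727351 in CTC 1168. Equal FPKM in different cells therefore need not be equal shares of that sum, which limits folds between cells. The cells of mouse 1168 had 43.1% (CTC) and 49.8% (tumor cell) of these genes at 1 FPKM or more, the other cells 4.8% to 16.0%. As a measure of background, the 99th percentile of odorant and pheromone receptor genes, which are made in the nose, is called the background level below. Folds are given also where the lower value lies under that level. It was 0.770, 0.148 and 2.70 FPKM in CTCs 1157, 1168 and PDGF1 and 1.94, 1.27 and 7.10 in the tumor cells. In each mouse it was thus higher in the tumor cell than in the CTC.

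**Figure D1:**
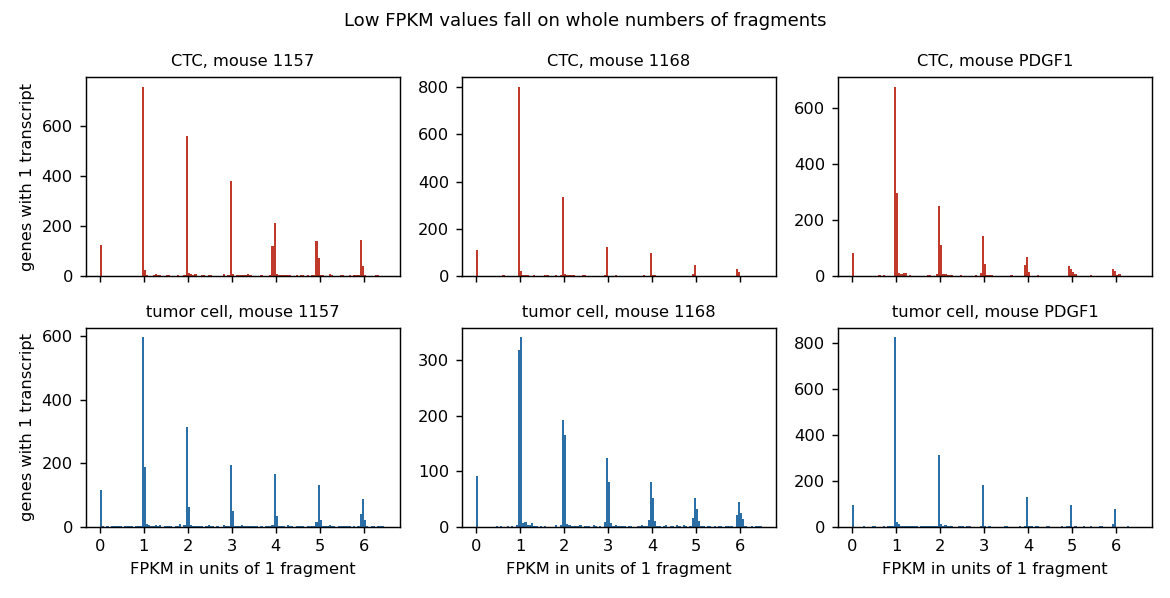
Histograms of low FPKM values in genes with 1 annotated transcript, divided by the value of 1 fragment in that cell (x axis, fragments; y axis, number of genes), 1 panel per cell. The values stand in narrow peaks at whole numbers, and 90.7% to 93.6% of them lie within 0.1 of a whole number.

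Errfi1, the feedback inhibitor of ERBB receptors, had 3 CTC values that all lay below the lowest tumor cell value. It was at 0.335 FPKM in CTC 1157, at 0.169 in that of mouse 1168 and listed at 0 in that of mouse PDGF1, against 2.07, 7.73 and 1.24 FPKM in their tumor cells. In mouse 1157 the tumor cell value was 6.17-fold higher and in mouse 1168 it was 45.6-fold higher. Both coding transcripts of Errfi1 have nearly the same length (3036 and 3043 bases), so its values translate into fragments, about 25.8 and 15.2 in CTCs 1157 and 1168 and 68.0, 1230 and 144 in tumor cells 1157, 1168 and PDGF1. In CTC PDGF1, 3 fragments would have read as 0.0247 FPKM. The number of fragments does not say how much of a cell's RNA was captured, and 3 rounds of amplification can make many fragments from 1 molecule. In CTC PDGF1 only 4.8% of named protein-coding genes were at 1 FPKM or more and the background level was 2.70 FPKM, above the Errfi1 value of its tumor cell. The part of capture in the low CTC values was not tested.

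The groups did not overlap for Errfi1, and the mean was 0.168 ± 0.168 FPKM for CTCs (SD, n = 3) and 3.68 ± 3.54 FPKM for tumor cells (SD, n = 3). The two-sided exact permutation test on log2(FPKM + 1) gave p = 0.1, the smallest that 3 cells against 3 allow. In the fit across all genes the log2 difference, CTC minus tumor cell, was -1.75 (SE 0.97, unadjusted p = 0.0710, adjusted p = 0.9999, limma), the 10th smallest unadjusted p of 4165 genes, and it did not pass the threshold of 0.05. The SE of this fit draws on the spread of genes of similar mean level, not on the Errfi1 values alone. Of all genes tested, 0% passed, and 7 had an unadjusted p under 0.05. Among genes above 0 in at least 1 cell, 2.88% had all 3 CTC values below all 3 tumor cell values, and among the 9 genes described here 1 did. Errfi1 entered the fit, which asks for 1 FPKM or more in at least 3 cells, only through the tumor cells, and among the genes tested 1.3% lay fully below in CTCs and 0.264% fully above. In tumor cell PDGF1 its value lay under the background level of 7.10 FPKM, while in tumor cells 1157 and 1168 it lay above that of the cell.

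Ranks within a cell do not depend on how a library is scaled, but they do depend on how many genes were detected in it. Among named protein-coding genes of the same cell Errfi1 stood at percentile 92.8, 78.0 and 91.2 in tumor cells 1157, 1168 and PDGF1, with percentile 72.9, 47.4 and 17.6 in the CTCs. By rank, which comes from the same values, the 3 CTCs again lay below the 3 tumor cells. The percentile in CTC PDGF1 is the shared rank of all genes listed at 0 in that cell. Errfi1 stood lower in tumor cell 1168 with 7.73 FPKM than in tumor cell PDGF1 with 1.24 FPKM.

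**Figure D2:**
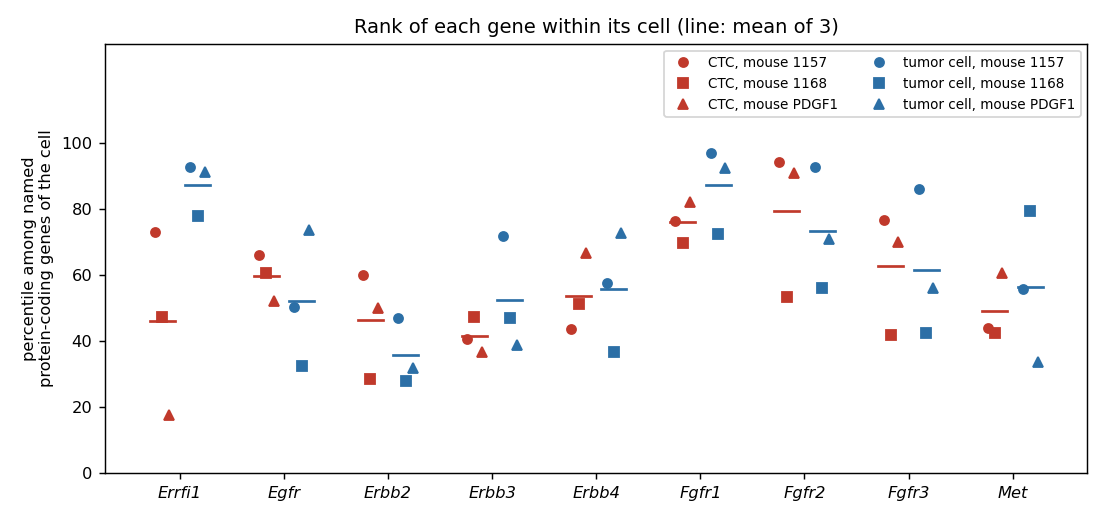
Percentile of each gene among the named protein-coding genes of the same cell (y axis, 0 to 100) for Errfi1 and the 8 receptors, with CTCs in red, tumor cells in blue, a marker shape per mouse and a line at the mean of 3 cells. Errfi1 ranks at 17.6 to 72.9 in CTCs and at 78.0 to 92.8 in tumor cells, and the groups overlap for every receptor.

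The Errfi1 gene lies on chromosome 4 from 150853796 to 150868889 (plus strand, GRCm38, RefSeq), and RefSeq gives it 2 start sites. The 250 bases before each are shown because this is the gene whose values separated the groups, and the window of its target Egfr (chromosome 11 from 16752203 to 16913907, plus strand) is shown beside them. Capitals mark matches, on either strand, to 5 motifs, the GC box (GGGCGG), the CCAAT box (CCAAT), the TATA box (TATAAA), the AP-1 site (TGANTCA) and the cAMP response element CRE (TGACGTCA).
Errfi1 upstream start, chr4:150853546-150853795: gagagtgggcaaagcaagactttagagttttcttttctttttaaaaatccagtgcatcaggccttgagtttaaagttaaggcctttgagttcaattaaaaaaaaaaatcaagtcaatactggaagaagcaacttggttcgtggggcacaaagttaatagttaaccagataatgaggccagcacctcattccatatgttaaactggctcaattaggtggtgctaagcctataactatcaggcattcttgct
Errfi1 downstream start, chr4:150854820-150855069: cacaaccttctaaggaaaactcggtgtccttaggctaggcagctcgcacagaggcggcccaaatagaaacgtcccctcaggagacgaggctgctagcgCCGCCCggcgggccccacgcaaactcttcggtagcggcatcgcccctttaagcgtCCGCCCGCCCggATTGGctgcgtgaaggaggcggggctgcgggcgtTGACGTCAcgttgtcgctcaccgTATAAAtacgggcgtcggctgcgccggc
Egfr, chr11:16751953-16752202: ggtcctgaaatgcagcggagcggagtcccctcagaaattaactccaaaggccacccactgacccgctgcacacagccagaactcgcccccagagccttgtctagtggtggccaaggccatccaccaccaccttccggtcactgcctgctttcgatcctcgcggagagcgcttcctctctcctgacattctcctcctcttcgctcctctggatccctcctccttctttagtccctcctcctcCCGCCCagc

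The 2 Errfi1 windows differ in composition. The upstream one held 1 CpG and none of the 5 motifs, and the downstream one held 30 CpGs, 3 GC boxes (of which 2 overlap each other), 1 CCAAT box, 1 TATA box and 1 CRE. The Egfr window held 11 CpGs and 1 GC box. Of 32851 such windows in the RefSeq table (GRCm38.p6), 32.7% held a GC box, 33.8% a CCAAT box, 12.4% a TATA box, 6.7% an AP-1 site and 1.5% a CRE, and the median number of CpGs was 6. A match is a match of letters only, and the table gives 1 value per gene, so it does not tell which start was used. A noncoding antisense RNA, 1700045H11Rik, overlaps the gene on the other strand, and it was listed at 0 in 4 cells and at 0.0578 FPKM or less in the other two.

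**Figure D3:**
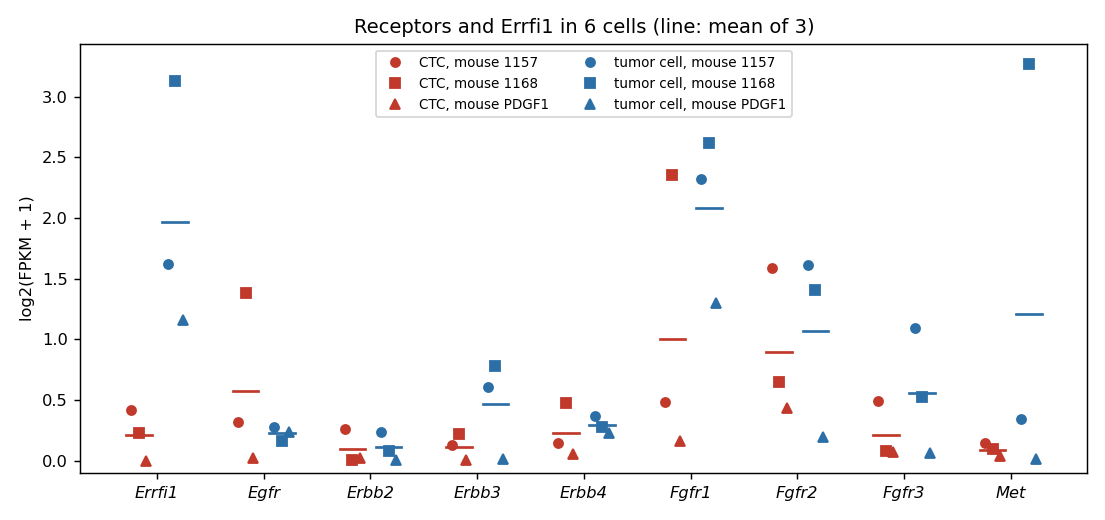
log2(FPKM + 1) (y axis) of Errfi1 and the 8 receptors in the 3 CTCs (red) and 3 tumor cells (blue), with a marker shape per mouse and a line at the mean of 3 cells. Errfi1 is the gene with no overlap between the groups, Met is high in 1 cell, and Erbb2 stays near 0 in all 6.

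Egfr, the main target of Errfi1, was low in 5 of 6 cells. It was at 0.2502, 1.61 and 0.0162 FPKM in CTCs 1157, 1168 and PDGF1 with 0.212, 0.119 and 0.181 in the paired tumor cells. Only CTC 1168 reached 1 FPKM, above its background level of 0.148. Its tumor cell value was 13.6-fold lower and lay under the background level there, 1.27 FPKM, so that the size of this fold is uncertain. The groups overlapped (two-sided exact permutation test, p = 0.7). The log2 difference of 0.35 rested on that CTC, since it was -0.05 without it, and it was -0.81 when FPKM was rescaled over named protein-coding genes. In the same CTC all 8 markers of oligodendrocyte progenitors were at 1 FPKM or more with a summed 432 FPKM, against 7 of 8 and 199 in the tumor cell, and over the 3 cells of each group the sums ran from 0.478 to 432 in CTCs and from 1.45 to 199 in tumor cells. None of these markers was at 0 in mouse 1168, and their part in the Egfr value was not tested.

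In mouse 1168 Egfr and Errfi1 thus differed in opposite directions, and in the other mice Egfr stayed under 1 FPKM in both cells. CTC 1168 held 1.61 FPKM of Egfr and 0.169 of Errfi1, and its tumor cell held 0.119 and 7.73.

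Erbb2, the ligandless ERBB receptor, was nearly silent. It was at 0.197, 0.00654 and 0.0144 FPKM in the CTCs and at 0.181, 0.0590 and 0.00502 in tumor cells 1157, 1168 and PDGF1. With 1 coding transcript of 5012 bases these values stand for about 25.8, 0.99 and 2.95 fragments in CTCs and 10.1, 15.8 and 0.994 in tumor cells. A single fragment thus gave the whole Erbb2 value in CTC 1168 and in tumor cell PDGF1. The groups overlapped (two-sided exact permutation test, p = 1.0). Exons of Erbb2 overlap those of Mien1 on the other strand, as do those of Fgfr1 with Gm16159 and of Fgfr3 with G630022F23Rik, and the sources used here do not say whether strand was used in the quantification. In the GENCODE annotation used here Fgfr2 shares exon sequence with Ctbp2 on the same strand, which strand cannot separate. Its span of Fgfr2 also covers many other genes, so Ctbp2 is not a direct neighbour. Whether this overlap entered the deposited Fgfr2 values was not tested.

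Erbb3, the receptor with the weak kinase, was under 1 FPKM in all 6 cells and lower in the CTC than in the tumor cell of each mouse. Mouse 1157 had 0.0936 FPKM (CTC) and 0.527 FPKM (tumor cell), mouse 1168 had 0.162 and 0.714, and mouse PDGF1 had 0.00398 and 0.0125. In fragments this was 14.8 against 35.6, 29.7 against 231 and 0.984 against 2.98, so the last pair compares 1 fragment with 3. Every tumor cell value of Erbb3 lay under the background level of its cell. Of the CTC values only that of mouse 1168 lay above it, at 0.162 against 0.148 FPKM. The groups overlapped (two-sided exact permutation test, p = 0.3). Erbb4, a neuregulin receptor of neurons and glia, was at 0.105, 0.391 and 0.0396 FPKM in CTCs and at 0.293, 0.213 and 0.169 in tumor cells. Its order differed between mice, with the CTC higher in mouse 1168 alone (two-sided exact permutation test, p = 0.7).

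Fgfr1, the FGF receptor of highest mean level (chromosome 8 from 25518759 to 25575718, plus strand), was lower in the CTC in 3 of 3 mice. It was at 0.399, 4.12 and 0.121 FPKM in the CTCs and at 4.001, 5.12 and 1.47 in tumor cells 1157, 1168 and PDGF1. Tumor cell 1157 was 10-fold above its CTC, tumor cell 1168 was 1.25-fold above and tumor cell PDGF1 12.2-fold. The groups overlapped because CTC 1168 exceeded 2 of the 3 tumor cells. The means were 1.55 ± 2.23 FPKM for CTCs (SD, n = 3) and 3.53 ± 1.88 for tumor cells (SD, n = 3) (two-sided exact permutation test, p = 0.3).

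In the fit across all genes the log2 difference of Fgfr1 was -1.08 (SE 1.48, adjusted p = 0.9999, limma). It ran from -0.66 without CTC PDGF1 to -1.76 without CTC 1168. By rank Fgfr1 stood at percentile 97.1, 72.3 and 92.4 in the tumor cells and at 76.5, 69.6 and 82.1 in the CTCs, lower in the CTC of every mouse. In the cells of mouse PDGF1 the FPKM of Fgfr1 was under the background level in both.

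Fgfr2 showed no common direction. It was at 2.01, 0.569 and 0.355 FPKM in the CTCs and at 2.07, 1.65 and 0.144 in tumor cells 1157, 1168 and PDGF1. CTC 1157 and tumor cell 1157 were nearly level, tumor cell 1168 was 2.90-fold higher, and in mouse PDGF1 the CTC was higher with both values under 1 FPKM. By limma the log2 difference of -0.18 had an SE of 0.86 and an adjusted p = 0.9999, and with quantile normalization it turned to 0.37. The groups overlapped (two-sided exact permutation test, p = 0.9).

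Fgfr3, a receptor typical of astrocytes and their progenitors, reached 1 FPKM only in tumor cell 1157, at 1.14 with 0.406 in the matching CTC. CTC 1168 had 0.0590 and its tumor cell 0.441, and CTC PDGF1 had 0.0494 and its tumor cell 0.0466. The last pair differs by less than 1 fragment would add to a transcript of the longest annotated form, which reads as 0.00581 FPKM in that CTC. The groups overlapped (two-sided exact permutation test, p = 0.4). All values of Fgfr3 lay under the background level of the cell.

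Met, the receptor of hepatocyte growth factor (chromosome 6 from 17463349 to 17573980, plus strand), was high in a single cell. Tumor cell 1168 held 8.64 FPKM, the highest value of any of the 9 genes in any cell. The other 5 cells held 0.106, 0.0666 and 0.0276 (CTCs of mice 1157, 1168 and PDGF1), 0.270 (tumor cell of mouse 1157) and 0.00732 (tumor cell of mouse PDGF1). Within mouse 1168 the tumor cell was 130-fold above the CTC, in which Met stands for at most 13.9 fragments, against at most 3172 in the tumor cell. The log2 difference over the 3 mice was -1.12 and fell in size to -0.09 without that tumor cell, and the groups overlapped (two-sided exact permutation test, p = 0.4).

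Markers of other cell types were also high in tumor cell 1168, in which Met and Errfi1 had their highest values. For comparison, 49.8% of named protein-coding genes were at 1 FPKM or more in that cell and 43.1% in its CTC. Of 16 microglia, macrophage and leukocyte markers 15 were at 1 FPKM or more, with a summed 2797 FPKM and none at 0, against 6 and 246 FPKM in the CTC of that mouse, where Aif1 and C1qa were at 0. Over the groups these sums ran from 3.95 to 246 in CTCs and from 17.7 to 2797 in tumor cells. Of 6 pericyte and fibroblast markers 5 were at 1 FPKM or more, with a sum of 51.5 FPKM against 2.63 in the CTC, where Pdgfrb, Dcn and Acta2 were at 0. Those sums ran from 0.233 to 2.63 in CTCs and from 1.07 to 75.2 in tumor cells. Of 8 endothelial markers 4 were at 1 FPKM or more, near the share of named protein-coding genes. Their sum was 12.3 FPKM against 0.872 in the CTC, where Cldn5 was at 0 as it was in the tumor cell. The endothelial sums ran from 0.872 to 20.9 in CTCs and from 3.02 to 12.3 in tumor cells.

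Of 73 markers over all lists 7 lay fully below in CTCs, as Errfi1 and 2.88% of genes above 0 in at least 1 cell did. Among them were Pecam1 and Cdh5 (endothelial), Mobp (mature oligodendrocyte), Gja1 (astrocyte) and Col1a1 and Acta2 (pericyte and fibroblast). Only 1, the epithelial Krt8, lay fully above, with every value under the background level of its cell (0.0455 FPKM at most, in CTC 1157). The share of all genes above 0 that lay fully above was not counted. Other markers of the same lists overlapped. The endothelial Vwf was lower in the CTC in mouse 1168 alone, and the astrocyte Slc1a3 in mouse PDGF1 alone. The myelin gene Mobp did not overlap between groups, at 0.155, 0.0235 and 0.00960 FPKM in the CTCs and 3.15, 0.742 and 0.892 in the tumor cells, nor did the astrocyte gap junction gene Gja1, at 0.0501, 0.585 and 0.0637 against 0.943, 3.99 and 1.02. Among tumor cells, Mobp lay above the background level in mouse 1157 alone (1.94 FPKM) and Gja1 in mouse 1168 alone (1.27 FPKM). Pecam1 lay under it in every tumor cell. The myelin surface gene Mog was at 0 in every cell but CTC 1157. The part of all these markers in the values of Met and Errfi1 was not tested.

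Within mice the counts were small. A gene was compared where either cell had 1 FPKM or more, and a difference of at least 1 on the log2(FPKM + 1) scale was counted. In mouse 1157, 2 of 4 such genes, Errfi1 and Fgfr1, were lower in the CTC, where 37.1% of all genes were, and 0 were higher, against 29% of all genes. In mouse 1168, 2 of 5, Errfi1 and Met, were lower (24.9% of all genes) and 1, Egfr, was higher (22.7%). In mouse PDGF1, 2 of 2, Errfi1 and Fgfr1, were lower (59.9%) and 0 higher (23.7%). With so few genes these shares cannot be set apart from those of all genes, and each compares 1 library with 1 other.

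Errfi1, Fgfr1 and Erbb3 were lower in the CTC in all 3 mice. That is 3 of 9 genes, where 12.5% of all genes above 0 in at least 1 cell did so. Of the Erbb3 values only that of CTC 1168 lay above the background level of its cell. Errfi1 differed by at least 1 in every mouse, with differences of -1.20, -2.90 and -1.16. The share of all genes that did so was not counted, so whether this is unusual cannot be said. In mouse PDGF1 both Errfi1 values lay under the background level, and 59.9% of the genes compared there were lower by at least 1.

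**Figure D4:**
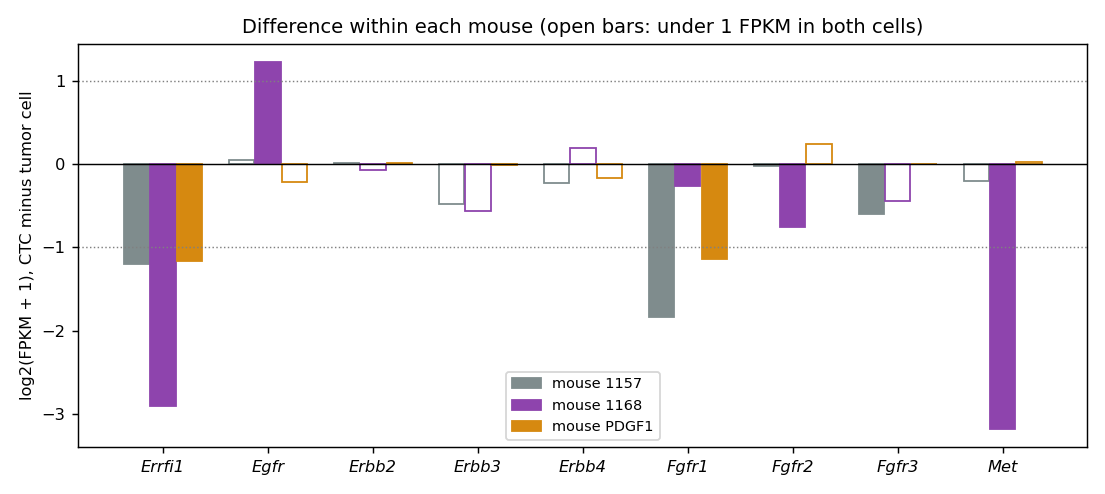
Difference in log2(FPKM + 1), CTC minus tumor cell (y axis), for each gene and mouse, with filled bars where either cell had 1 FPKM or more, open bars where neither did, and dotted lines at 1 and -1. Errfi1 is below -1 in all 3 mice, Fgfr1 is below 0 in all 3, and Met and Egfr differ by more than 1 in mouse 1168 alone, in opposite directions.

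The make-up of the receptors within a cell does not depend on library scaling either. FGF receptors took 78.9%, 67.9% and 83.7% of the summed FPKM of the 8 receptors in CTCs 1157, 1168 and PDGF1 and 82.9%, 42.5% and 81.5% in the tumor cells. They were thus the larger part in 5 of 6 cells, the exception being tumor cell 1168, where Met took 51.0%. ERBB receptors together took 6.5% to 31.1%, with the highest share in CTC 1168, where Egfr alone took 23.1% of the sum of the 8 receptors. Fgfr1 was the leading receptor in CTC 1168 (58.9%) and in tumor cells 1157 (46.1%) and PDGF1 (72.1%), and Fgfr2 led in CTCs 1157 (56.3%) and PDGF1 (56.6%). In both cells of mouse PDGF1 every one of the 8 receptors lay under the background level, so the shares there are of values that cannot be told from background. The summed level was lower in the CTC of each mouse, at 3.57, 6.98 and 0.627 FPKM against 8.69, 17.0 and 2.03. The median log2 difference of all genes at 1 FPKM or more in either cell was -0.62, 0.04 and -1.18 for mice 1157, 1168 and PDGF1. That of the 9 genes, taken without this filter, was -0.23, -0.44 and -0.01. Only 4, 5 and 2 of the 9 met the filter, and the scale understates the change of low genes. The medians therefore cannot be set against each other.

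**Figure D5:**
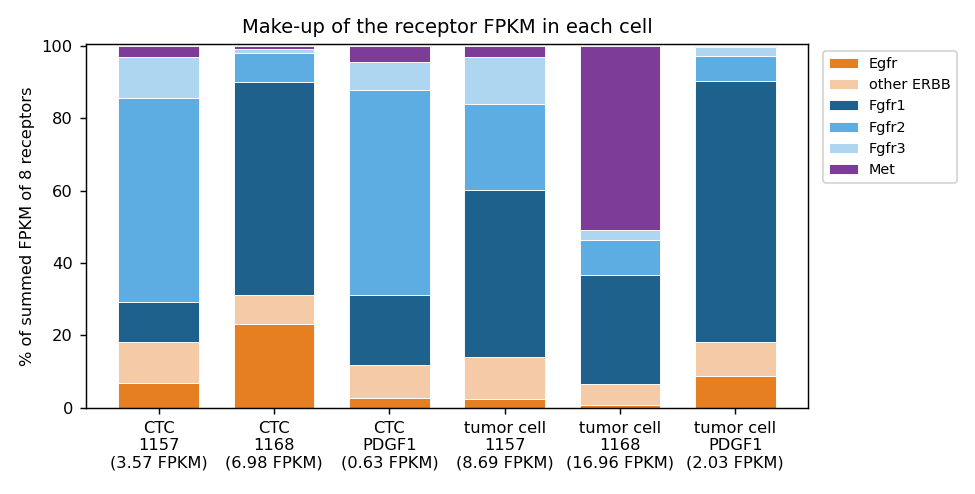
Share of each receptor in the summed FPKM of the 8 receptors (y axis, percent) in each of the 6 cells, with the sum under each bar. FGF receptors (blue) make up 67.9% or more of 5 bars, and Met (purple) makes up 51.0% of tumor cell 1168.

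Ligands of the EGF family reached 1 FPKM in at most 2 of 11 genes per cell. Hbegf, a membrane-bound EGF family ligand, was at 18.6 FPKM in CTC 1168 and 16.0 in tumor cell 1168, and at 3.08 in tumor cell PDGF1. Its other 3 values were 0.514 or less. Egf was at 2.69 in tumor cell 1157 and at 1.38 in CTC 1168, and Tgfa and Nrg2 stayed under 1 in all cells. Nrg4, a ligand of Erbb4, was at 1.03 FPKM in CTC 1157 and 2.52 in tumor cell 1157 and at 0.282 and 1.07 in those of mouse 1168. Of 11 EGF family ligands 2 were tested, both with a negative difference, and 0 passed (limma, adjusted p = 0.9999 for Hbegf).

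Fgf9, a glial and neuronal growth factor, had the highest mean of the FGF ligands, carried by mouse 1168. It was at 47.7 FPKM in CTC 1168 and 7.96 in tumor cell 1168 and under 1 in the other 4 cells. Fgf18 was at 2.60 in that CTC and listed at 0 in the tumor cell, and Fgf2 was at 1.13 and 2.41, Fgf12 at 1.60 and 1.03. Fgf10 reached 2.56 in tumor cell PDGF1 and stayed under 0.4 elsewhere. None of 22 FGF ligands met the filter, so none was tested.

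Little of the Met ligand was measured. Hgf itself, named here after its values were seen, was at 0.276 FPKM at most, in tumor cell 1157. Plxnb1, a semaphorin receptor that can pair with Met, was at 9.18 in CTC 1168 and 3.92 in tumor cell 1168. Mst1r, the receptor closest to Met, was at 3.55 in tumor cell 1157, and Spint1, an inhibitor of the proteases that activate HGF, at 1.68 in its CTC. St14, one of those proteases, reached 1.71 in tumor cell PDGF1, and Hpn stayed at 0.273 or less. None of these 10 genes was tested.

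Of 12 FGF co-receptors and further FGF receptors 4 were tested, with 1 negative and 3 positive differences, and 0 passed. In mouse 1168 Fgfrl1, an FGF receptor without a kinase, was at 14.1 FPKM in the CTC against 7.06, and the syndecan Sdc4, a heparan sulfate carrier, at 15.3 against 5.89. The glypican Gpc1 went the other way, at 5.10 against 36.9. Ncam1, an adhesion molecule that can bind FGF receptors, was at 15.2 against 10.6, and Sdc2 at 9.50 against 9.81. In mouse 1157 Sdc4, Gpc1 and Ncam1 were at 7.41, 4.34 and 2.12 in the CTC against 2.85, 1.09 and 0.643, and in mouse PDGF1 each of these 5 genes was under 1 in both cells.

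Adaptors and transducers below the receptors differed between mice in the same order as named protein-coding genes in general, of which 43.1% and 49.8% were at 1 FPKM or more in mouse 1168 and 4.8% to 16.0% in the other cells. Of 35 members 29 were at 1 FPKM or more in CTC 1168 and 30 in tumor cell 1168, while mouse 1157 had 7 and 10, and mouse PDGF1 had 2 and 3. Hras, a RAS protein, was at 243 in CTC 1168 with 88.9 in its tumor cell, at 220 in CTC 1157 with 0.858 in its tumor cell, and under 0.2 in either PDGF1 cell. Nras was at 87.0 against 29.0 in mouse 1168, while Map2k1, a kinase that activates ERK, was at 31.8 against 63.4 and Map2k2 at 167 against 124. Stat3, a transcription factor activated by many receptors, was at 25.0 FPKM in CTC 1168 with 19.2 in its tumor cell, and at 7.73 in CTC PDGF1 with 0.360 in its tumor cell. Of 16 tested, 10 had a negative and 6 a positive difference with a median of -0.13, where 52.9% of all genes tested were negative with a median of -0.06, and 0 passed (limma).

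Among 25 genes of receptor turnover and inhibition measured, 8 were tested, 4 in each direction, and 0 passed (limma, median -0.06). Hsp90ab1, a chaperone on which ERBB2 and other kinases depend, was at 1278 FPKM in CTC 1168 against 330, at 805 in that of mouse 1157 against 2.72, and at 1.65 in that of mouse PDGF1 against 31.2. Its co-chaperone Cdc37 was at 25.5 in CTC 1168 with 30.3 in its tumor cell, and Stam, which sorts receptors in endosomes, at 8.67 with 29.1. The phosphatase Ptpn1 was at 19.6 in CTC 1168 with 7.54 in its tumor cell, but CTC 1157 had 0.380 with 5.73 and CTC PDGF1 0.00577 with 3.29. The related Ptpn2 was at 0.542 in CTC 1157 against 46.4. No tested gene of these lists had CTC values wholly to one side of the tumor cell values. Eps15, an endocytic adaptor that takes part in receptor uptake, did so (values below) but was at 1 FPKM or more in 2 cells only and was not tested. It was named because its values lay nearest to those of Errfi1. The other untested genes of these lists were not searched for such a separation. Of all genes above 0 in at least 1 cell, 2.88% lay fully below in CTCs, as Eps15 did.

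Other receptor tyrosine kinases were compared with the 8. Of 41 in the list 12 were at 1 FPKM or more in CTC 1168 and 14 in tumor cell 1168, and 2 to 6 in the other cells. The neurotrophin receptors Ntrk2 and Ntrk3 were at 47.8 and 20.7 FPKM in CTC 1168 against 3.60 and 9.05, Ephb3, an ephrin receptor, at 47.2 against 6.53, and Ryk, a Wnt co-receptor, at 43.5 against 19.4. Axl, a receptor for Gas6, went the other way, at 1.16 against 31.5. In CTC 1168 each of Ntrk2, Ntrk3, Ephb3 and Ryk thus had a higher level per length than any of the 8 receptors, whose highest value there was 4.12 for Fgfr1. Of 4 tested in the list, 3 had a negative and 1 a positive difference, and 0 passed (limma).

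The genes whose values lay nearest to those of Errfi1 over the 6 cells, by distance on the log2(FPKM + 1) scale, were Eps15 at a distance of 0.57, and Dsn1, a kinetochore protein, at 0.60. Eps15 was at 0.249, 0.309 and 0 FPKM in CTCs 1157, 1168 and PDGF1, with 1.997, 5.87 and 0.689 in their tumor cells. For Fgfr1 the nearest were Hnrnpul1 at 0.58 and Zfand2a at 0.89, and for Fgfr2 they were Rusc2 at 0.52 and Zfp407 at 0.63. These distances describe 6 libraries that share mice in pairs.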

How the data were processed

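RNA from 3 CTCs and 3 tumor cells was amplified through 3 rounds of linear amplification and sequenced from stranded mRNA libraries, per the labels' protocols. The authors deposited FPKM for 45038 rows, a unit taken from the file's name. STAR 2.4.2a, Cufflinks 2.2.1 and GRCm38 are named in the submitters' processing notes. The sources used here do not give the handling of reads with more than 1 match. The values of 27 rows named as dates and 211 rows with repeated names were left out. GENCODE mouse release 21 (GRCm38) gave gene classes and transcript lengths, and RefSeq gave gene coordinates and promoter windows, which matched 7 of the 9 genes.

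The value of 1 fragment in each cell was estimated from genes with 1 annotated transcript, by the step and length correction that put most low values on whole numbers. Fragments of genes with several transcripts are upper limits for the longest coding one. FPKM keeps no counts, and no count test was run.

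Differences in log2(FPKM + 1) were tested two-sided by limma 3.58.1 (R 4.3.3; trended prior variance; Benjamini-Hochberg adjustment) over the 4165 genes that reached 1 FPKM in 3 or more cells. Of the 9 genes, 3 (Errfi1, Fgfr1 and Fgfr2) met that filter. The fit was tested on simulated data, where it called the changed genes when the spread between cells was small and nearly none when it was wide. Single genes were compared by exact permutation over cells. CTC and tumor cell are paired by the mouse they came from, and their deviations from group means correlated at 0.178, 0.689 and 0.428 in mice 1157, 1168 and PDGF1. Between a CTC and a tumor cell of different mice the correlations ran from -0.622 to 0.422. The highest was that of CTC PDGF1 with tumor cell 1157. P-values of the permutation test measure the spread between these cells only. Those of limma rest on an SE that draws on the spread of other genes of similar mean level. They are thus no measure of the spread of the single gene alone. Differences on this scale understate the change of low genes.

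The genes, lists and tests were chosen with earlier results of these data known. All 9 genes are named. Of each list the rule names up to 5 genes of highest mean FPKM, any past the threshold, and any tested gene with no overlap between groups, and for each of the 9 genes tested the 2 genes nearest in log2(FPKM + 1) over the 6 cells. The CRE motif and Hgf were added after values were seen. Python 3.11.15, numpy 2.4.6, pandas 2.3.3 and matplotlib 3.10.9 did the rest. A marker gene, and the summed values of its list, are not reported here.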

Additional observations from a re-analysis of the deposited data

How the results depend on the processing

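Across 18 alternatives (other pseudocounts, filters, scalings, no variance trend, the mouse as a block, and leaving out each cell or mouse), none of the 9 genes passed the threshold where it was tested. Errfi1 was tested in 12 of them and not in the 6 that drop a tumor cell or a mouse, Fgfr1 in 17 and Fgfr2 in 13, and without mouse 1168 none of the 9 was tested. With the replicate block, which pairs the cells of a mouse, 1 gene of all passed in place of 0, Snora2b, which is no receptor gene, and for Errfi1 the block gave an adjusted p = 0.697 (limma, unadjusted 0.00569), the lowest over the alternatives that tested it, whose highest was 0.99996. The block changed no call among the 3 of the 9 genes that it tested. Errfi1 kept its direction throughout, from -3.66 to -0.68, as did Fgfr1, and Erbb3, Fgfr3 and Met did in the 16 alternatives that gave them a value (quantile normalization gave none to genes under the filter). Rescaling over named protein-coding genes moved the median of all genes from -0.06 to -1.02. Relative to it Errfi1 was at -2.63 (-1.70 as deposited), Fgfr1 at -1.66 (-1.02), Met at -0.14 (-1.06), Egfr at 0.22 (0.41), and the signs of Fgfr2 (0.53, from -0.12), Erbb4 (0.07, from -0.01) and Fgfr3 (0.02, from -0.29) turned.

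Other directions turned. Egfr was at -0.808 under that rescaling and at -0.086 without mouse 1168, and from -0.054 to 0.627 when cells were left out singly. Erbb2 was at 0.016 without mouse 1168 and ran from -0.095 to 0.052 over single cells left out. Erbb4 was at 0.014 without mouse 1157 and ran from -0.192 to 0.018. Fgfr2 was at 0.366 with quantile normalization, with or without the block, at 0.108 without mouse 1168, and ran from -0.619 to 0.092. The cause was not tested. An exact test of 3 cells against 3 allows no p under 0.1, so a gene that misses the threshold is not shown to be equal. Fragment numbers cover counting error only, as amplified copies are not independent molecules.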
